A study of Mus musculus with 36 samples.

Results

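Brain miRNAs of wild-type mice at 9 months of age were compared with those of wild-type mice at 6 months of age. The mice were C57BL/6, the genotype label reads wild type, and no treatment is named. Each age had 3 small RNA libraries, which were 6 of the 12 small RNA libraries and 6 of the 36 samples of a study of APP/PS1 and wild-type brains. APP/PS1 mice of the same 2 ages, which carry the APP695swe and PS1-dE9 mutations, enter here only where they are set beside wild type. Every miRNA row was included by rule, with no selection on a measured value. There were 1411 rows, of which 1312 carry a miRNA name and 99 are unnamed predictions. In the 6 wild-type libraries 1294 rows had at least 1 read and 117 had none. A filter on low counts (filterByExpr in edgeR) left 560 rows to test. The 851 rows not tested had at most 23 reads in any wild-type library, the most being in miR-466f-3p. The labels name no brain region. They also leave unsaid whether each library is a different mouse, so the p-values refer to the variation among these samples alone, and that variation may be technical.

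A miRNA is a short RNA cut from a hairpin, and either arm of the hairpin (5p or 3p) can be loaded into a silencing complex. Bases 2 to 8 of the miRNA, the seed, find matching sites in mRNAs, whose translation and stability are then lowered. miRNAs that share a seed form a family with overlapping targets, and neighbours in the genome are often cut from a shared transcript. Many miRNAs are rich in a single cell type or brain region, so a whole-brain level depends on the makeup of the sample as well as on the level per cell. In these bulk samples, fewer cells of a type and less RNA per cell cannot be told apart.

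The mature sequences below belong to the miRNAs on which the comparison turned, with the seed in capitals. They are RefSeq entries (build GRCm38.p6), in which 479 of the 560 tested miRNAs had a match. The first set is the miR-200 family, of which miR-200a, miR-200b and miR-429 lie on chromosome 4 and miR-200c and miR-141 on chromosome 6, and the miR-183 cluster on chromosome 6. These 2 groups had the lowest levels at 9 months relative to 6 months.
miR-200a-3p: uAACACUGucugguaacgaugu
miR-141-3p: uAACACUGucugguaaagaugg
miR-200b-3p: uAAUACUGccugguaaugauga
miR-200c-3p: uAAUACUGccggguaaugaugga
miR-429-3p: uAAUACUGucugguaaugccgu
miR-183-5p: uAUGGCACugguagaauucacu
miR-96-5p: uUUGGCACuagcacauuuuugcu
miR-182-5p: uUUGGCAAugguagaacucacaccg

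Positions are counted from 1 at the 5′ end. From miR-200a-3p to miR-141-3p the changes are C17A and U22G, outside the seed. miR-200b-3p, miR-200c-3p and miR-429-3p share a seed of their own, and U11G and A22G separate miR-200c-3p from miR-200b-3p. The next set shows members of families in which a single member stood out, each beside relatives of similar sequence.
miR-29a-3p: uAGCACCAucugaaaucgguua
miR-29b-3p: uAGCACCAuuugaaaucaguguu
miR-29c-3p: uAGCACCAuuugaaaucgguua
miR-376b-3p: aUCAUAGAggaacauccacuu
miR-376a-3p: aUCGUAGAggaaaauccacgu
miR-99a-5p: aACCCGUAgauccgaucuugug
miR-100-5p: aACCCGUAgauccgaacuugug
miR-148a-3p: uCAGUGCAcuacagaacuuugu
miR-152-3p: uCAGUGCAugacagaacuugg

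The changes from miR-29a-3p are C10U alone in miR-29c-3p, and C10U, G18A, U21G and A22U in miR-29b-3p. From miR-376b-3p to miR-376a-3p they are A4G, inside the seed, C13A and U20G. A single change, U16A, separates miR-100-5p from miR-99a-5p. From miR-148a-3p to miR-152-3p they are C9U, U10G and U20G.

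Small RNA libraries held 5426658 to 6008209 miRNA reads at 9 months and 6270888 to 8595108 at 6 months. A read was seen for 910 to 954 rows per library at 9 months and for 945 to 1008 at 6 months. The protocol text names retinas as the tissue taken, while the tissue label reads brain. In the long RNA libraries of the same names, the 10 photoreceptor mRNAs examined reached at most 2.80 FPKM. The neuronal mRNA Snap25 lay at 860 to 871 FPKM at 9 months and 785 to 847 FPKM at 6 months.

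Libraries 1 and 3 at 6 months stood apart from the other wild-type libraries in mRNA markers of 2 brain parts. The 12 choroid plexus mRNAs summed to 421, 460 and 481 FPKM in libraries 1, 2 and 3 at 9 months, against 57.5, 397 and 66.3 FPKM at 6 months. The 4 olfactory bulb mRNAs summed to 3.48, 3.03 and 3.03 FPKM at 9 months, against 12.5, 4.43 and 14.6 FPKM at 6 months. Of 8 striatal mRNAs found, 7 were lower in all 9-month than in all 6-month libraries (background 8.23% of 18108 mRNAs), with Ppp1r1b (DARPP-32) at 116, 115 and 108 FPKM against 147, 133 and 124 FPKM. Whether these marker levels reflect the tissue taken was not tested, and the miRNA results that move with them have their values beside them.

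**Figure D1:**
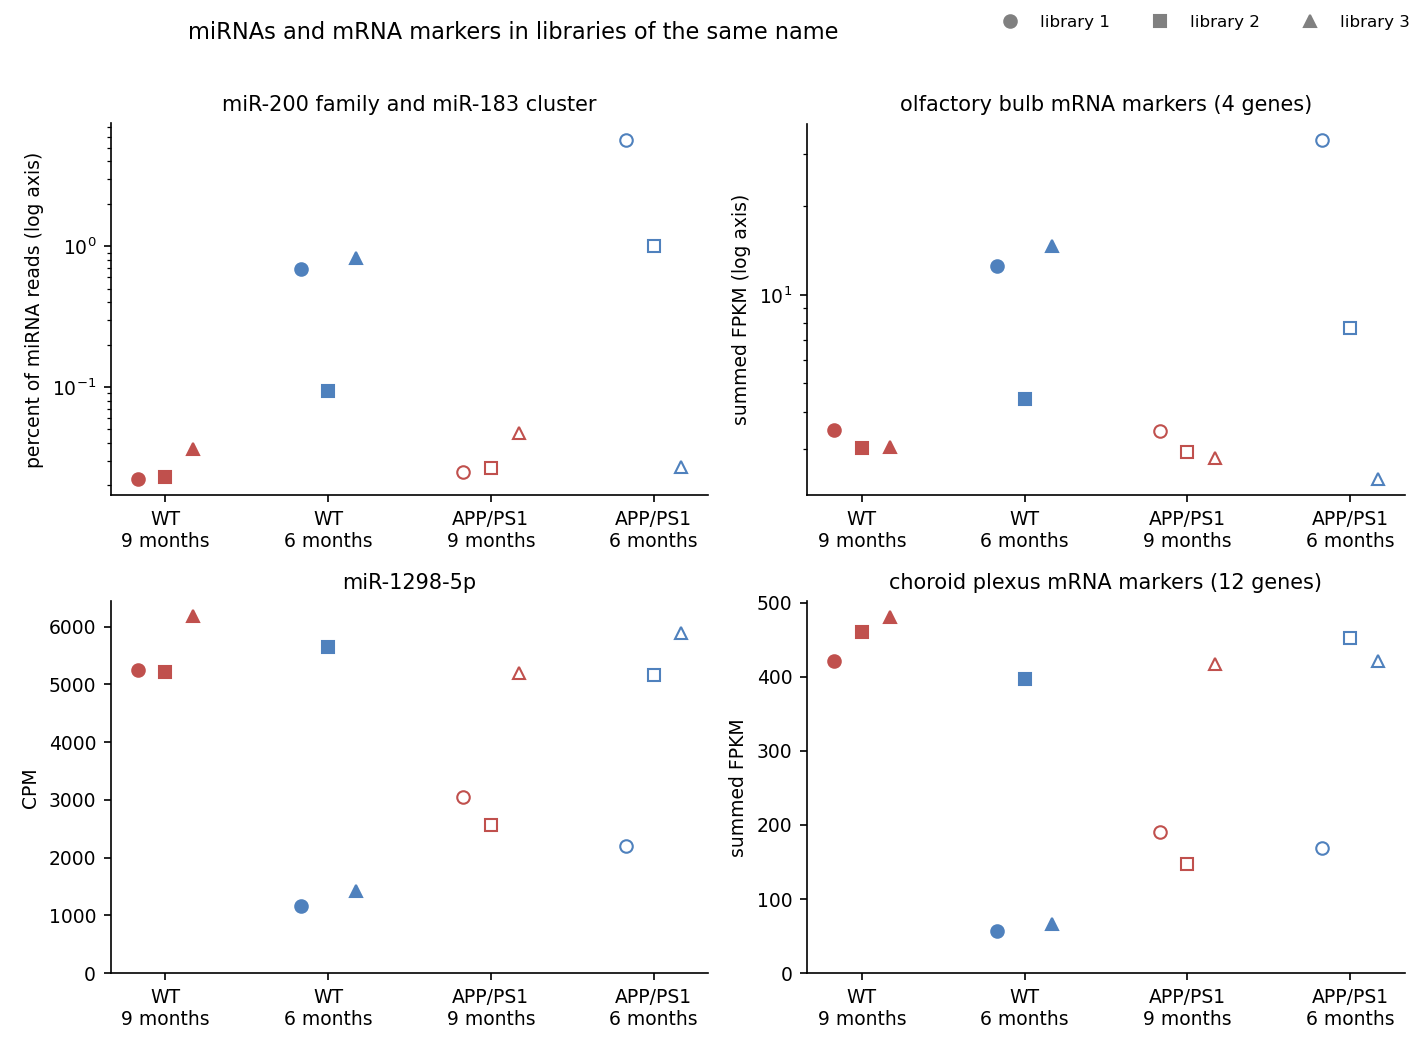
Per-library levels in wild-type and APP/PS1 brains, with 9 months left of 6 months in each genotype. Upper panels show the share of miRNA reads in the miR-200 family and miR-183 cluster and the summed FPKM of 4 olfactory bulb mRNAs (log axes). Lower panels show miR-1298-5p in CPM and the summed FPKM of 12 choroid plexus mRNAs. Point shapes give the library number, filled points are wild type and open points are APP/PS1. Wild-type 6-month libraries 1 and 3 were high in both upper panels and low in both lower panels.

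Some rows share reads. miR-9-5p and miR-9b-3p, which are listed from opposite strands of the same hairpins and share 21 bases as reverse complements, had nearly equal counts in every library. Library 1 at 9 months had 705645 and 704205 reads of them, and library 1 at 6 months had 847968 and 846394. The strand from which these reads came cannot be told apart.
miR-9-5p: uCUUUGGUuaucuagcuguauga
miR-9b-3p: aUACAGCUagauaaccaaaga

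Of 28 pairs of rows whose reference positions overlap on opposite strands, 10 had totals within 2% of each other. The oligodendrocyte miRNA miR-338-3p and miR-3065-5p had identical counts, as did miR-467a-5p and miR-467b-5p, and 6 pairs of rows were identical in all. Such pairs count as 2 rows in the numbers below, and a level of either member may belong to its partner.

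The 10 most abundant rows held 57.8% to 60.1% of the reads at 9 months and 58.8% to 60.1% at 6 months. Levels are given in CPM, reads per 1000000 miRNA reads of the library. miR-9-5p and miR-9b-3p come from hairpins that act in neural progenitors and neurons. Their summed counts were 25.98%, 25.5% and 22.7% of all counts in libraries 1, 2 and 3 at 9 months, against 27.0%, 23.6% and 25.7% at 6 months. The ranges overlapped. Because these 2 rows share reads, the sums count such reads under both names and overstate the share of reads from these hairpins. The same holds for the library totals and for the share of the 10 most abundant rows. miR-99a-5p followed with 54924, 59446 and 68452 CPM at 9 months, against 54903, 62132 and 56227 CPM at 6 months. The neuronal miR-128-3p had 45554, 45642 and 64449 CPM at 9 months, against 60293, 52845 and 44848 CPM at 6 months. Below these came let-7f-5p, miR-127-3p (from the imprinted Dlk1-Dio3 locus), miR-148a-3p, let-7g-5p, miR-218-5p and miR-26a-5p. All 10 rows overlapped between the ages, their fitted log2 changes lay between -0.14 and 0.03, and their adjusted p-values were 0.674 or higher in edgeR's quasi-likelihood test.

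No miRNA passed the test between 9 and 6 months in wild type. At a Benjamini-Hochberg adjusted p under 0.05, edgeR's quasi-likelihood F test called 0 of 560 rows (0%), and the smallest adjusted p was 0.187. At an unadjusted p under 0.05 there were 50 rows (8.93%), with 25 higher at 9 months (4.46%) and 25 lower (4.46%). DESeq2 on the same rows called 10 (1.79%), with 3 higher and 7 lower, and gave no adjusted p for 11 rows. They were miR-29b-3p, miR-376a-3p and miR-100-5p, which were higher at 9 months, and miR-467a-5p, miR-467b-5p, miR-200a-3p, miR-200b-3p, miR-429-3p, miR-141-3p and miR-183-5p, which were lower. The median log2 change over the 560 rows was -0.003 and the median of its size was 0.14. A size above 1 was seen in 21 rows (3.75%). The 2 groups did not overlap in CPM for 83 rows (14.8%), of which 47 were above (8.39%) and 36 below (6.43%) at 9 months. Since no row was called, the miRNAs below are described by their values, and none is stated to have changed.

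**Figure D2:**
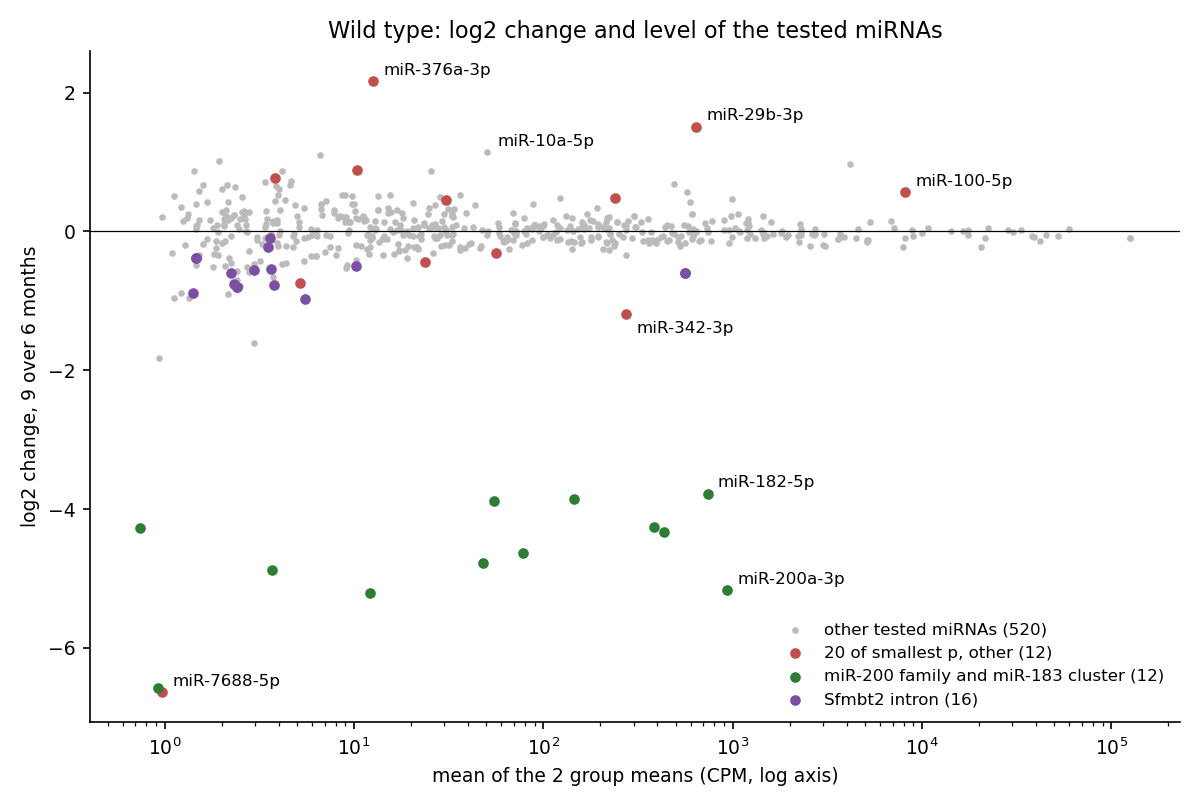
Log2 change of 9 over 6 months in wild type (vertical axis) against the mean of the group means in CPM (log axis) for the 560 tested rows. Colours mark the miR-200 family and miR-183 cluster, the Sfmbt2 intron rows and the other rows among the 20 of smallest p. The miR-200 family and miR-183 cluster lie between -3.78 and -6.58. The positions of miR-7688-5p and miR-141-5p, which had no read at 9 months, depend on the fit's prior count.

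Of the 20 rows of smallest p, 13 were lower and 7 higher at 9 months, and 17 did not overlap between the ages, a count that the choice by small p favours. The lower ones held 5 rows of the miR-200 family and miR-183 cluster.

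The 8 tested rows of the miR-200 family (miR-200a, miR-200b, miR-200c, miR-141 and miR-429) and the 4 of the miR-183 cluster (miR-183, miR-96 and miR-182) were lower in all 9-month than in all 6-month libraries. Of these 12 rows, 8 had at least 10 reads in every 9-month library. The other 4 (miR-141-3p, miR-141-5p, miR-200b-5p and miR-182-3p) had at most 5 reads in any 9-month library and passed the filter through 6-month libraries, where they were high, so their direction was partly set by the filter. miR-200 miRNAs are known from epithelia, where they repress the Zeb transcription factors, and from the olfactory system. The miR-183 cluster is known from sensory organs, the retina and the olfactory epithelium among them. Together they made up 0.0224%, 0.0229% and 0.0360% of reads in libraries 1, 2 and 3 at 9 months, against 0.692%, 0.0929% and 0.831% at 6 months. All 3 libraries at 9 months were low, and library 2 at 6 months lay nearer to them than libraries 1 and 3.

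Within the miR-200 family, miR-200a-3p had 38.3, 54.4 and 62.1 CPM at 9 months, against 2125, 273 and 3061 CPM at 6 months. Its log2 change was -5.17 (SE 1.51, adjusted p = 0.271 in edgeR's quasi-likelihood test). miR-200b-3p had 28.6, 36.9 and 50.6 CPM at 9 months, against 1017, 140 and 1019 CPM at 6 months. Its log2 change was -4.26 (SE 1.33). The rarer miR-429-3p and miR-200c-3p followed the same order of libraries at 6 months, with log2 changes of -4.63 and -4.78. The passenger arm miR-141-5p had 0 reads in all 9-month libraries and 15, 3 and 23 reads at 6 months, which is at least 10.8-fold lower when 3 reads over the 9-month group are taken as the floor.

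Within the miR-183 cluster, miR-183-5p had 33.7, 29.3 and 61.9 CPM at 9 months, against 1092, 144 and 1229 CPM at 6 months. Its log2 change was -4.33 (SE 1.37, adjusted p = 0.286 in edgeR's quasi-likelihood test). miR-182-5p had 92.3, 72.9 and 141.2 CPM at 9 months, against 1867, 256 and 1984.5 CPM at 6 months, and miR-96-5p had 21.0, 15.1 and 21.9 CPM, against 356, 48.5 and 413 CPM. The proportions within the cluster were not the same at the 2 ages. miR-182-5p exceeded miR-183-5p by a ratio of 2.74, 2.49 and 2.28 at 9 months, against 1.71, 1.78 and 1.61 at 6 months, and these ratios did not overlap. In APP/PS1 they were 2.64, 2.95 and 2.63 at 9 months, against 1.64, 1.63 and 2.56 at 6 months. APP/PS1 library 3 at 6 months, with 0.0272% of reads in the 2 groups of miRNAs, was thus near the 9-month ratios. Whether the ratio goes with age or with level was not tested.

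The 10 photoreceptor mRNAs summed to 3.72, 3.80 and 2.97 FPKM at 9 months, against 3.42, 4.17 and 3.27 FPKM at 6 months, and overlapped. The olfactory bulb mRNAs were ordered over the 6-month libraries as these miRNAs were, with library 2 lowest. The 4 markers (Doc2g, Eomes, Cdhr1 and Tbx21) were all lower in every 9-month than in every 6-month library (background 8.23%). Tbx21, a transcription factor of bulb projection neurons, lay at 0.0311, 0.0135 and 0 FPKM at 9 months, against 0.538, 0.0718 and 0.757 FPKM at 6 months. With the mean level of the 4 mRNAs as a covariate, the log2 change was -1.52 for miR-200a-3p and -0.91 for miR-183-5p. The adjusted p-values were then 0.676 and 0.730 in edgeR's quasi-likelihood test. In that fit the families' medians were -1.47 and -0.76, against -4.83 and -4.06 without the covariate. The covariate was chosen after seeing the data. It also separated the ages in wild type, at -0.38, -0.57 and -0.51 (mean log2) at 9 months, against 1.23, -0.13 and 1.48 at 6 months. It therefore takes up part of the age contrast, this fit cannot tell the 2 apart, and no conclusion is drawn from it.

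A pair of miRNAs was several-fold higher in libraries 1 and 2 at 9 months only. miR-29b-3p, of a family known to repress collagen and DNA methyltransferase mRNAs and named in work on brain ageing, had 1283, 1258 and 339 CPM at 9 months, against 315, 299 and 355 CPM at 6 months. Library 3 at 9 months lay within the 6-month range, so the groups overlapped. The means were 960 ± 538 CPM at 9 months and 323 ± 28.4 CPM at 6 months (SD, n = 3 libraries each). The log2 change was 1.51 (SE 0.35, adjusted p = 0.187 in edgeR's quasi-likelihood test).

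The closest relatives of miR-29b-3p did not share that size. miR-29a-3p had 11123, 9674 and 9391 CPM at 9 months, against 10338, 8768 and 10480 CPM at 6 months, with a log2 change of -0.02. miR-29c-3p had 123, 106 and 74.5 CPM at 9 months, against 67.1, 66.3 and 89.4 CPM at 6 months, with a log2 change of 0.39. miR-29b-3p made up 10.2%, 11.4% and 3.46% of the reads of the 3 3p arms at 9 months, against 2.94%, 3.28% and 3.25% at 6 months. The other arms of its 2 hairpins, miR-29b-1-5p and miR-29b-2-5p, had log2 changes of 0.16 and 0.05. The 7 tested rows of the family had a median log2 change of 0.19, with 6 above 0.

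miR-376a-3p, from the Dlk1-Dio3 locus on chromosome 12, had 23.0, 34.0 and 5.31 CPM at 9 months, against 5.42, 3.75 and 4.19 CPM at 6 months. As with miR-29b-3p, libraries 1 and 2 were high and library 3 was not. The log2 change was 2.16 (SE 0.49, adjusted p = 0.187 in edgeR's quasi-likelihood test). Its partner arm miR-376a-5p had 31.9, 28.0 and 21.1 CPM at 9 months, against 24.9, 25.1 and 33.9 CPM at 6 months. The 3p arm was 41.9%, 54.8% and 20.1% of the hairpin's reads at 9 months, against 17.9%, 13.02% and 11.0% at 6 months. miR-376b-3p, the relative that differs from it by the 3 bases given above, had a log2 change of -0.07.

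Without library 3 at 9 months, miR-29b-3p and miR-376a-3p were the only rows called. Their adjusted p-values were then 1.57e-06 and 0.000222 in edgeR's quasi-likelihood test, with log2 changes of 1.90 and 2.61. The library left out is the one in which neither was high, so a small p was favoured by that choice. Leaving out any other wild-type library gave adjusted p-values of 0.196 to 0.427 for both in the same test.

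**Figure D3:**
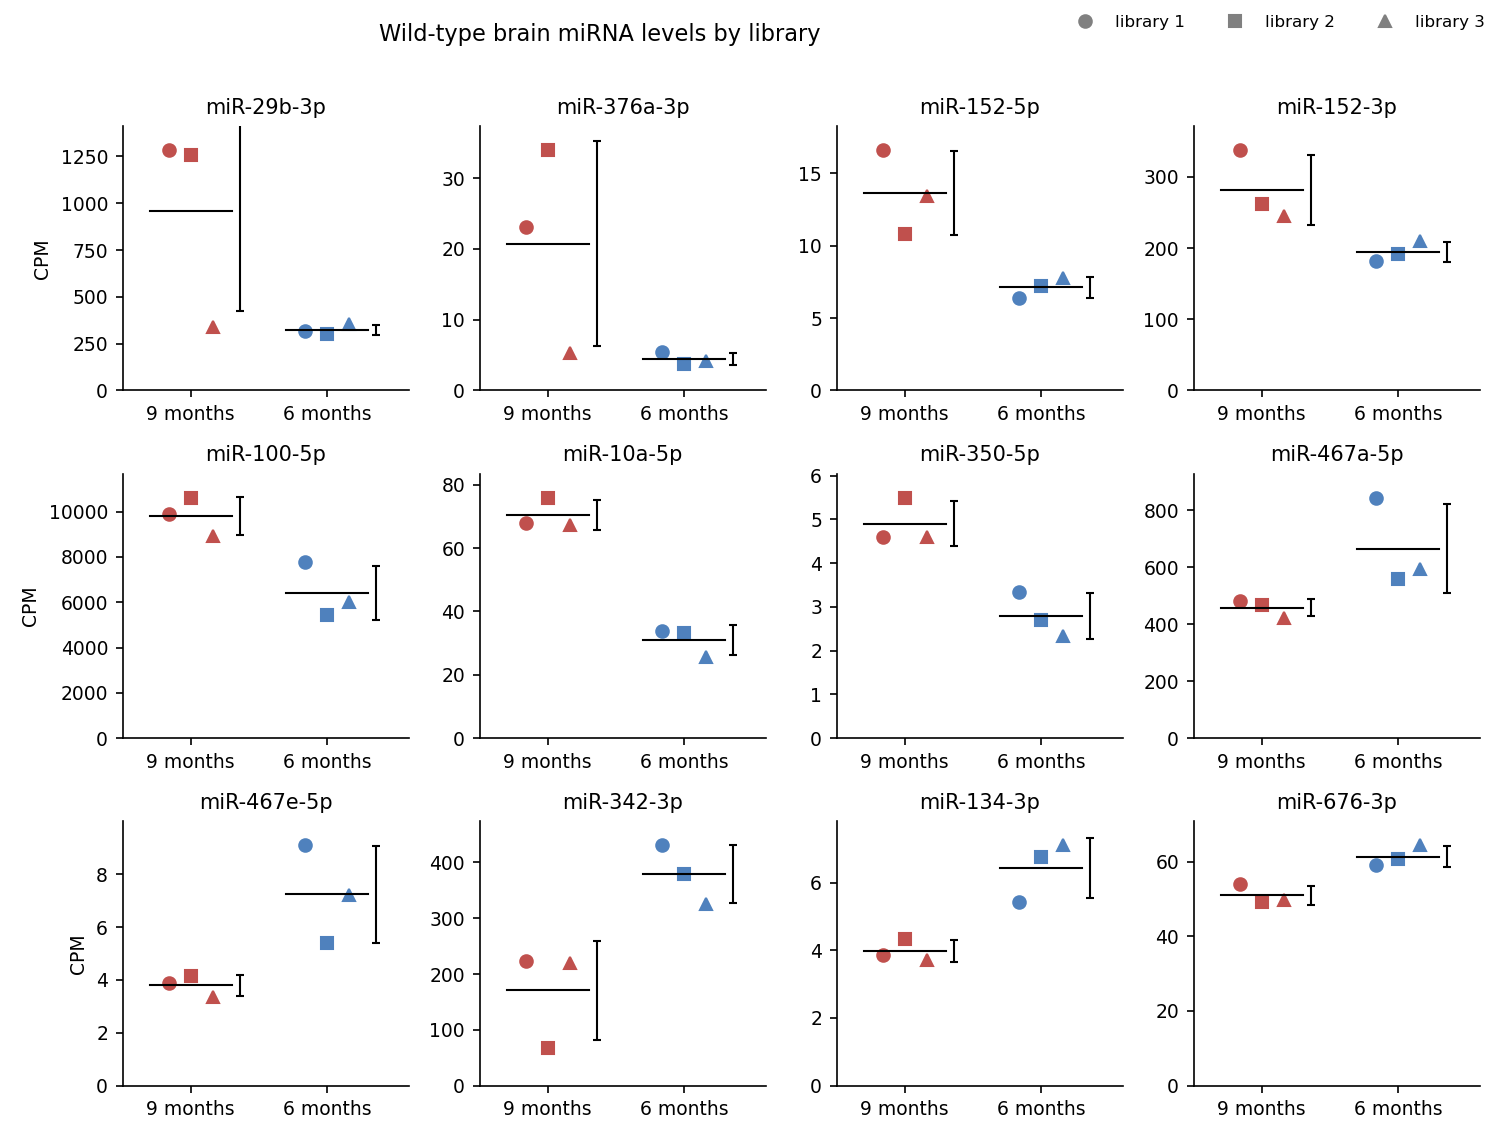
CPM of 12 miRNAs in each wild-type library, with 9 months left of 6 months and each vertical axis starting at 0. Point shapes give the library number, horizontal lines the group means and bars 1 SD (n = 3 libraries). miR-29b-3p and miR-376a-3p overlap between the ages through library 3 at 9 months, and the other 10 do not overlap.

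miRNAs of the Sfmbt2 intron, a repeat-derived cluster (miR-297, miR-466, miR-467 and miR-669) found in rodents and active in placenta and stem cells, lay below 0 in 16 of 16 tested rows. Over all tested rows 286 of 560 (51.1%) did. The median was -0.59, against -0.003 over all rows. With no filter on low counts, 40 of the 56 listed rows lay below 0, as did 661 of all 1411 rows. With a minimum of 10 CPM only 2 rows of the list were left, miR-467a-5p and miR-467b-5p. The others were low in reads, and the filter passes such rows more readily where a group is high. Their direction may thus be partly set by the filter. Without APP/PS1 library 1 at 6 months, 19 rows were tested and 17 lay below 0. Of the 16, 6 were lower in all 9-month libraries (background 6.43%). The rows are not independent, since 3 pairs of them had identical counts and the members share repeat sequence. miR-467a-5p, with the same reads as miR-467b-5p, had 481, 469 and 423 CPM at 9 months, against 844, 559 and 594 CPM at 6 months. Library 1 at 6 months was the highest, and the groups did not overlap. The log2 change was -0.59 (SE 0.15, adjusted p = 0.187 in edgeR's quasi-likelihood test).

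miR-467e-5p, which had the smallest unadjusted p of all rows, had 3.87, 4.16 and 3.36 CPM at 9 months, against 9.09, 5.404 and 7.21 CPM at 6 months, from 19 to 25 and from 36 to 62 reads per library. Its log2 change was -0.97 (SE 0.21, adjusted p = 0.187 in edgeR's quasi-likelihood test). Library 1 at 6 months carried part of the list's shift. Without it, 12 of 17 tested rows lay below 0 with a median of -0.33, and miR-467a-5p had a log2 change of -0.33, while the median over all rows was 0.04. The host mRNA Sfmbt2 lay at 1.04 ± 0.111 FPKM at 9 months and 1.13 ± 0.148 FPKM at 6 months (SD, n = 3), and the groups overlapped.

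miRNAs of the choroid plexus, which makes cerebrospinal fluid, were lower in the 2 6-month libraries with low choroid plexus mRNA. miR-1298-5p, from an intron of the serotonin receptor gene Htr2c, had 5244, 5210 and 6189 CPM at 9 months, against 1158, 5650 and 1421 CPM at 6 months. Library 2 at 6 months lay within the 9-month range. miR-448-3p, of the same host, had 36.9, 29.3 and 33.4 CPM at 9 months, against 8.77, 34.4 and 9.42 CPM at 6 months. The log2 changes were 0.97 (SE 0.54) and 0.88 (SE 0.49), with adjusted p-values of 0.601 for each in edgeR's quasi-likelihood test.

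miR-204-5p, from the Trpm3 intron and rich in choroid plexus, had 589, 563 and 671 CPM at 9 months, against 273, 532 and 302 CPM at 6 months. It was higher in all 9-month libraries, by 0.68 on the log2 scale (SE 0.27, adjusted p = 0.447 in edgeR's quasi-likelihood test). Of 9 tested rows in the list, 8 lay above 0 (background 48.9%), with a median of 0.51. With the choroid plexus mRNA level as a covariate, 1 of 9 did, with a median of -0.09, and miR-1298-5p was at -0.09. In wild type this covariate was 2.22, 2.41 and 2.50 (mean log2) at 9 months, against -0.19, 2.34 and 0.36 at 6 months. It therefore takes up part of the age contrast, this fit cannot tell the 2 apart, and no conclusion is drawn from it. The host mRNA Htr2c, which neurons also make, lay at 13.4 ± 0.689 FPKM at 9 months and 11.997 ± 1.22 FPKM at 6 months (SD, n = 3).

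Among miRNAs of multiciliated cells, such as those of the ependyma, miR-34c-5p and miR-34b-3p were also lowest in libraries 1 and 3 at 6 months. miR-34c-5p had 1194, 1185 and 1113 CPM at 9 months, against 517, 1210 and 713 CPM at 6 months. miR-34b-3p, of the same transcript, had 30.0, 34.6 and 36.1 CPM at 9 months, against 15.1, 33.5 and 20.7 CPM at 6 months. Their log2 changes were 0.47 and 0.50, and both were below 0 with the choroid plexus covariate, a fit from which no conclusion is drawn. miR-449a-5p, of the same seed family, had 3.32, 1.997 and 3.54 CPM at 9 months, against 4.47, 5.10 and 3.96 CPM at 6 months, with no overlap and a log2 change of -0.65. The 6 ciliary mRNAs found summed to 7.51, 8.49 and 8.03 FPKM at 9 months, against 6.03, 8.09 and 5.42 FPKM at 6 months, and overlapped. Their members differed. The ciliary regulator Foxj1 lay at 2.26, 2.68 and 2.51 FPKM at 9 months, against 1.86, 2.82 and 2.39 FPKM at 6 months. Ccdc153 was higher in all 9-month libraries, while Dnah11 was lower in all of them (background 8.23% lower).

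miR-10a-5p, encoded in a Hox gene cluster on chromosome 11 and known from the hindbrain and spinal cord, was higher at 9 months in every library. It had 67.8, 75.9 and 67.4 CPM at 9 months, against 34.0, 33.3 and 25.5 CPM at 6 months. The log2 change was 1.14 (SE 0.39, adjusted p = 0.301 in edgeR's quasi-likelihood test). With only the 6 wild-type libraries in the fit, it was called with an adjusted p of 0.0301 in edgeR's quasi-likelihood test. miR-10b-5p, from another Hox cluster, had 31.7, 44.4 and 32.2 CPM at 9 months, against 32.7, 33.8 and 24.1 CPM at 6 months, and the groups overlapped. The 6 other Hox-locus rows of the list did not enter the test.

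miR-100-5p, which shares its seed with miR-99a-5p and is known to act on Mtor in human cells, was the most abundant miRNA among the 20 of smallest p. It had 9887, 10612 and 8935 CPM at 9 months, against 7759, 5445 and 6018 CPM at 6 months. The groups did not overlap, and library 2 at 6 months was the lowest. The log2 change was 0.56 (SE 0.15, adjusted p = 0.201 in edgeR's quasi-likelihood test). With the choroid plexus covariate miR-100-5p was called in the same test (log2 change 0.90, adjusted p = 0.0252). That covariate takes up part of the age contrast, as given above, so no conclusion is drawn from this call. miR-99a-5p, which differs from it by 1 base, had a log2 change of 0.03. miR-100-5p made up 14.6%, 14.5% and 11.2% of the reads of miR-99a-5p, miR-99b-5p and miR-100-5p at 9 months, against 11.9%, 7.76% and 9.26% at 6 months.

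Both arms of miR-152, a miRNA that targets DNA methyltransferase mRNA, were higher in all 9-month libraries. miR-152-5p had 16.6, 10.8 and 13.4 CPM at 9 months, against 6.38, 7.21 and 7.80 CPM at 6 months, and a log2 change of 0.88 (SE 0.23, adjusted p = 0.201 in edgeR's quasi-likelihood test). miR-152-3p had 337, 262 and 245 CPM at 9 months, against 181.95, 191 and 210 CPM at 6 months, and a log2 change of 0.48 (SE 0.16). The other members of its seed family overlapped between the ages. miR-148a-3p had a log2 change of -0.08 and miR-148b-3p of -0.09, and the 6 tested rows of the family had a median of -0.09.

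miR-342-3p, from an intron of Evl, was lower in all 9-month libraries. It had 224, 68.1 and 220 CPM at 9 months, against 430, 379 and 326 CPM at 6 months, and library 2 at 9 months was the lowest. The log2 change was -1.19 (SE 0.37, adjusted p = 0.284 in edgeR's quasi-likelihood test) and -0.81 without that library. Its partner arm miR-342-5p had 9, 0 and 16 reads at 9 months, against 36, 32 and 24 at 6 months, and library 2 at 9 months was again the lowest. The host mRNA Evl lay at 40.6 ± 4.30 FPKM at 9 months and 39.2 ± 1.01 FPKM at 6 months (SD, n = 3).

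The remaining rows among the 20 of smallest p had small or low-count differences. miR-134-3p, an arm of a Dlk1-Dio3 hairpin whose 5p arm is known to act at dendritic spines in rat neurons, had 3.87, 4.33 and 3.72 CPM at 9 months, against 5.42, 6.76 and 7.10 CPM at 6 months. miR-350-5p had 4.61, 5.49 and 4.60 CPM at 9 months, against 3.35, 2.70 and 2.33 CPM at 6 months. Neither overlapped between the ages, and the log2 changes were -0.74 and 0.77. miR-676-3p and miR-7a-2-3p were lower in all 9-month libraries, with log2 changes of -0.31 and -0.44. miR-29a-5p overlapped, with a log2 change of 0.45.

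miR-7688-5p had 0 reads in all 9-month libraries and 12, 13 and 17 reads at 6 months. With 3 reads over the 9-month group as the floor, it was at least 11.1-fold lower at 9 months. In APP/PS1 it had 0 reads in all 9-month libraries and 0, 0 and 5 reads at 6 months. It entered the test only through the wild-type 6-month libraries.

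The 22 tested rows of the neuronal list (miR-124, miR-128, miR-132, miR-218 and others) had a median log2 change of -0.06, with 7 above 0 and none at an unadjusted p under 0.05. The 24 listed rows summed to 227438, 225748 and 228812 CPM at 9 months, against 244042, 222453 and 225098 CPM at 6 months. The 7 tested oligodendrocyte rows had a median of 0.22, with 6 above 0. miR-219a-2-3p, which promotes oligodendrocyte differentiation, had 1373, 1691 and 1694 CPM at 9 months, against 1332, 1301 and 1329 CPM at 6 months. It was higher in all 9-month libraries, by 0.22 on the log2 scale. The 6 oligodendrocyte mRNAs summed to 631, 796 and 742 FPKM at 9 months, against 760, 700 and 754 FPKM at 6 months, and overlapped.

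The 6 tested rows of microglia and white blood cells all lay above 0, with a median of 0.31, and all overlapped between the ages. miR-146a-5p, which dampens innate immune signalling, had 471, 626 and 793 CPM at 9 months, against 527, 677 and 597 CPM at 6 months. miR-142a-5p, of blood-derived cells, had 30.2, 31.0 and 23.2 CPM at 9 months, against 18.7, 22.2 and 23.7 CPM at 6 months. Without library 2 at 9 months, 5 of 6 rows lay above 0 with a median of 0.12.

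Among red blood cell miRNAs, miR-451a had 514, 704 and 854 CPM at 9 months, against 446, 487 and 425 CPM at 6 months. miR-144-5p, of the same transcript, had 4.98, 5.99 and 6.19 CPM at 9 months, against 3.99, 2.70 and 3.72 CPM at 6 months. Neither overlapped, and the log2 changes were 0.57 (SE 0.33) and 0.67 (SE 0.29). The 6 erythroid mRNAs summed to 229, 409 and 495 FPKM at 9 months, against 313, 370 and 352 FPKM at 6 months. Library 1 was the lowest of the 9-month libraries in the miRNAs and in the mRNAs alike, and the part of residual blood was not tested. Without library 2 at 9 months, 2 of the 5 tested rows of this list lay above 0.

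The endothelial miR-126a-3p had 22813, 24538 and 21602 CPM at 9 months, against 19744, 22556 and 22277 CPM at 6 months, with a log2 change of 0.05. The 4 tested rows of smooth muscle and pericytes lay above 0 with a median of 0.21, and miR-145a-3p was higher in all 9-month libraries, by 0.38. The muscle miRNA miR-1a-3p had 603, 684 and 731 CPM at 9 months, against 516, 590 and 538 CPM at 6 months, and a log2 change of 0.25. It was 1 of 2 among the 4 tested rows of striated muscle that were higher in all 9-month libraries (background 8.39%). miR-206-3p, also of skeletal muscle, had 7.37, 8.99 and 6.37 CPM at 9 months, against 9.73, 7.66 and 14.3 CPM at 6 months, and a log2 change of -0.53 with overlapping groups. miR-122-5p, the main liver miRNA, had 30, 38 and 28 reads at 9 months, against 36, 35 and 84 at 6 months. The 6 endocrine rows (miR-7 and miR-375) had a median of -0.24, and miR-7a-5p, which binds the circular RNA Cdr1as, had 20135, 21971 and 15684 CPM at 9 months, against 22706, 23551 and 19051 CPM at 6 months.

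**Figure D4:**
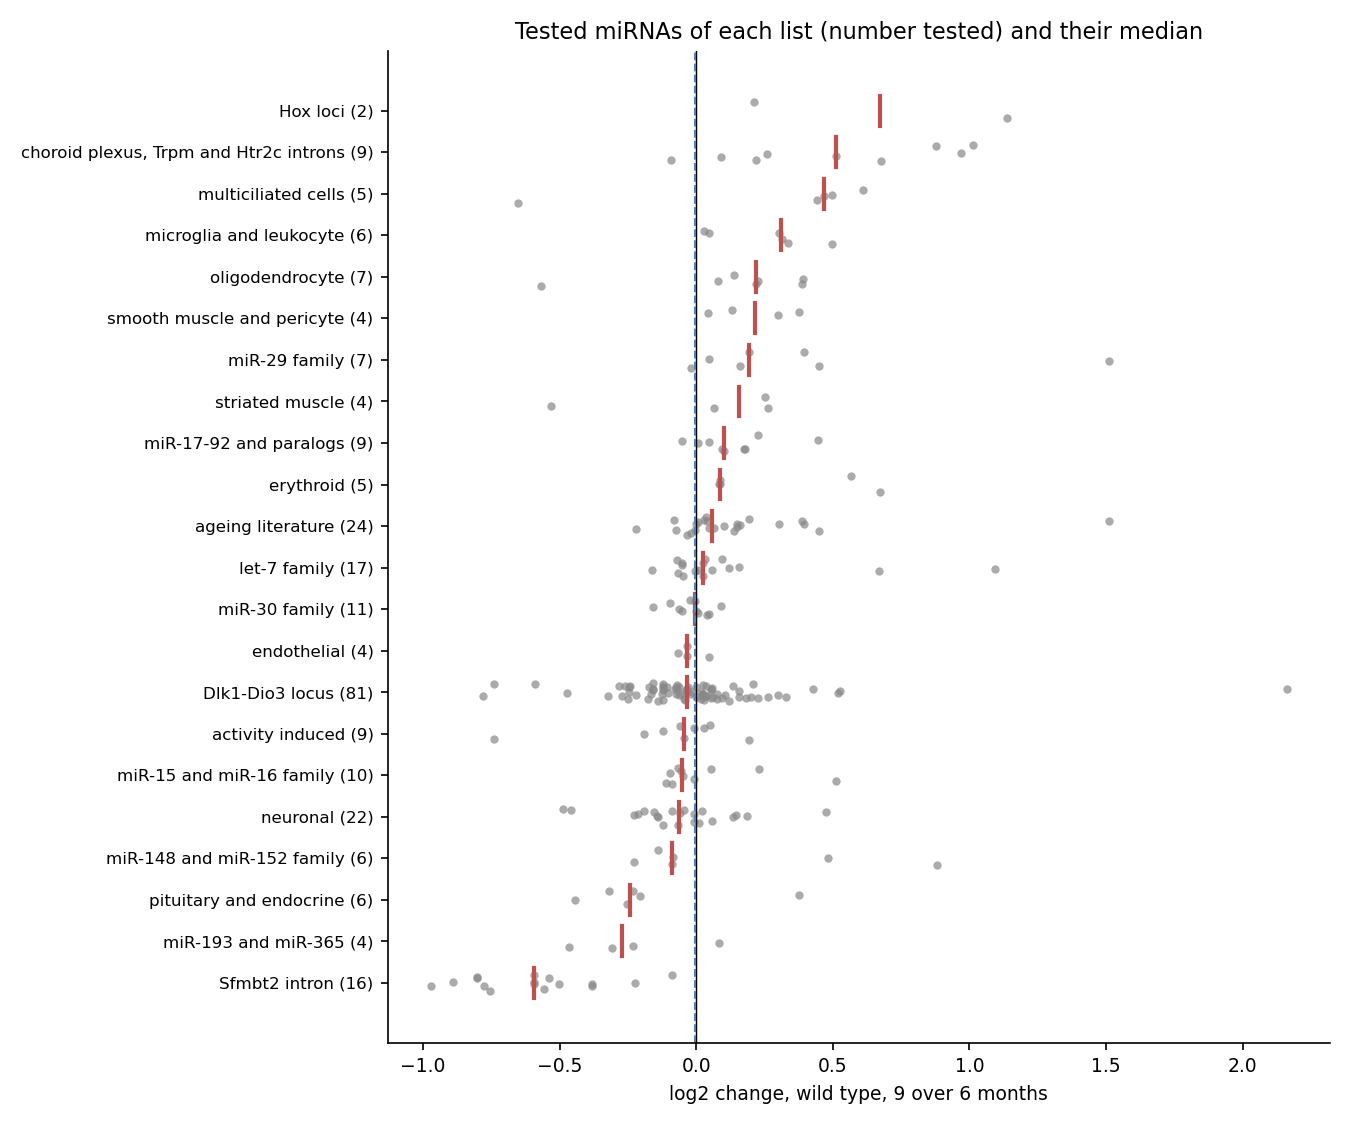
Log2 change of 9 over 6 months in wild type for each tested member (grey points) of 22 lists of miRNAs, with the number tested in brackets and the list median as a red bar. The dashed line is the median of all 560 rows, and the miR-200 family, the miR-183 cluster and the single tested liver row are not drawn. The Sfmbt2 intron list has the lowest median, -0.59, and none of its 16 members lies above 0.

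miRNAs named in earlier work on brain ageing were spread around 0. Of 24 tested rows, 17 lay above 0 with a median of 0.06, and 3 did not overlap, all above (background 8.39%). The largest change was that of miR-29b-3p. miR-181a-5p had 7249, 7688 and 7446 CPM at 9 months, against 8741, 7401 and 9145 CPM at 6 months, a log2 change of -0.22 with overlapping groups. Rows of miRNAs induced by neuronal activity, such as miR-132 and miR-212, had a median of -0.04 over 9 tested, and miR-132-5p had a log2 change of -0.04.

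The let-7 family, the miR-30 family and the miR-15 and miR-16 family had medians close to that of all rows. The 17 tested let-7 rows, of a family that restrains growth, had a median of 0.02 (-0.07 without library 3 at 9 months), and the 9 mature strands with the let-7 seed lay between -0.07 and 0.03. The sum of the list was 137878, 137622 and 154575 CPM at 9 months, against 147618, 134222 and 143303 CPM at 6 months. The passenger arm let-7g-3p had 6.63, 16.1 and 4.60 CPM at 9 months, against 3.99, 3.45 and 4.89 CPM at 6 months, high in library 2 at 9 months. The 11 rows of the miR-30 family had a median of -0.003 and the 10 of the miR-15 and miR-16 family -0.05. The 9 of the growth-linked miR-17-92 cluster and its paralogs had a median of 0.10 with 8 above 0, and miR-25-3p was higher in all 9-month libraries, by 0.18. The 4 of the miR-193 and miR-365 families had a median of -0.27, with 3 below 0.

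The Dlk1-Dio3 locus, an imprinted cluster read from the maternal chromosome, supplied 113528, 109313 and 102509 CPM at 9 months, against 96884, 114295 and 118597 CPM at 6 months. Of its 81 tested rows, 35 lay above 0 and 46 below, with a median of -0.03. Of these, 6 were above and 4 below in all 9-month libraries, against a background of 8.39% and 6.43%. miR-493-5p had 42.8, 47.1 and 39.8 CPM at 9 months, against 33.6, 25.5 and 27.8 CPM at 6 months. miR-668-3p had 145, 132 and 116 CPM at 9 months, against 154, 142 and 156 CPM at 6 months.

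The APP/PS1 libraries gave the same comparison without sharing a library with wild type. There too, 0 of 560 rows were called between 9 and 6 months (0%) by edgeR's quasi-likelihood test, with 44 at an unadjusted p under 0.05 (7.86%), 25 higher (4.46%) and 19 lower (3.39%), and DESeq2 called 14, all lower at 9 months. Of the 50 wild-type rows at an unadjusted p under 0.05, 40 had the same sign in APP/PS1, as did 325 of all 560 rows. Outside the miR-200 family and miR-183 cluster it was 30 of 40. Across the 560 rows the log2 changes in the 2 genotypes had a Pearson r of 0.84, and of 0.35 over the 548 rows without these families. The rows are not independent replicates and share their libraries.

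**Figure D5:**
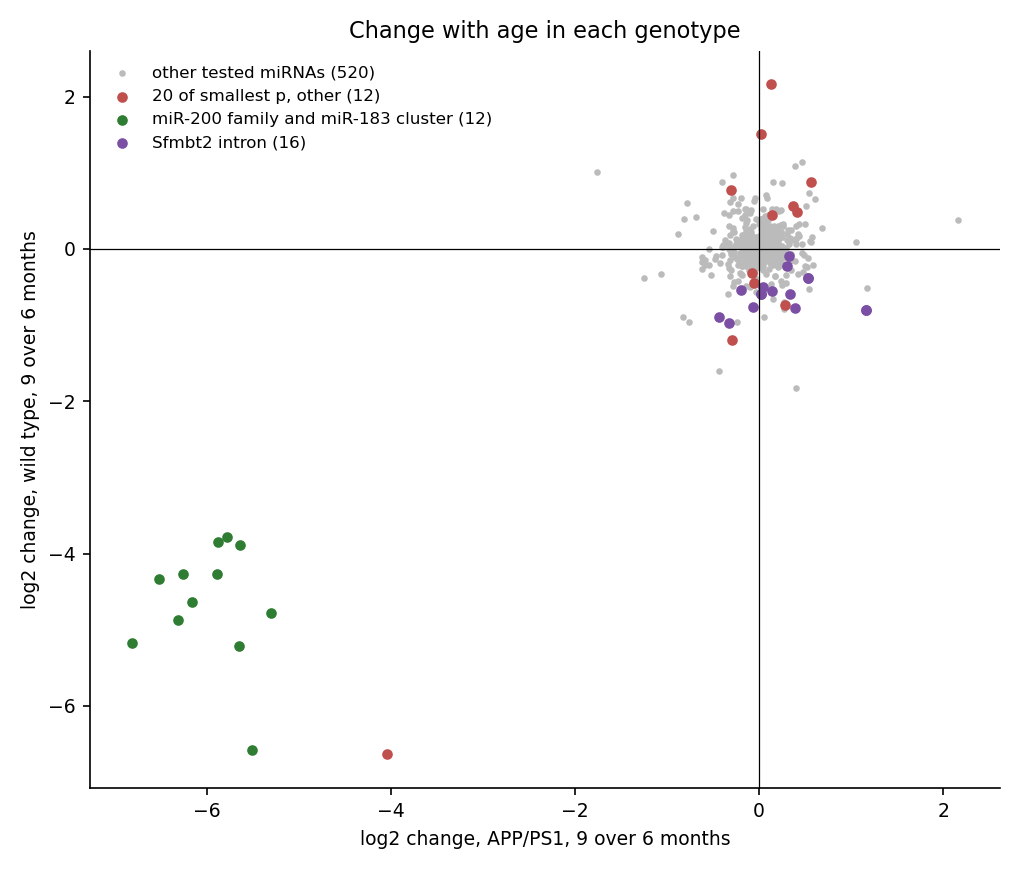
Log2 change of 9 over 6 months in wild type (vertical axis) against that in APP/PS1 (horizontal axis) for the 560 tested rows, with colours as in the plot of change against level. The miR-200 family and miR-183 cluster lie far below 0 in both genotypes, while miR-29b-3p and miR-376a-3p lie near 0 in APP/PS1.

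The miR-200 family and miR-183 cluster were lower at 9 months in APP/PS1 as well, at 0.0249%, 0.0265% and 0.0468% of reads in libraries 1, 2 and 3 at 9 months, against 5.64%, 1.00% and 0.0272% at 6 months. Library 3 at 6 months lay within the 9-month range. The 4 olfactory bulb mRNAs summed to 3.45, 2.92 and 2.78 FPKM at 9 months, against 33.5, 7.71 and 2.37 FPKM at 6 months. They had the miRNAs' order of libraries at 6 months and the reverse order at 9 months. miR-100-5p was also higher in all 9-month APP/PS1 libraries (background 7.32%), with 11097, 10779 and 9203 CPM at 9 months, against 8598, 8316 and 6960 CPM at 6 months.

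Other wild-type differences were not seen at that size in APP/PS1, or went the other way. miR-29b-3p had 351, 326 and 296 CPM at 9 months in APP/PS1, against 284, 369 and 307 CPM at 6 months, and miR-376a-3p had 4.79, 2.77 and 3.46 CPM, against 3.66, 3.17 and 3.34 CPM. miR-467a-5p had 523, 499 and 580 CPM at 9 months in APP/PS1, against 484, 527 and 549 CPM at 6 months. Of the 16 tested Sfmbt2 intron rows, 12 lay above 0 in APP/PS1, with a median of 0.22. The choroid plexus list had 1 of 9 rows above 0 in APP/PS1 (median -0.12), against 8 of 9 in wild type. The list of multiciliated cells had 1 of 5 above 0 (median -0.33), against 4 of 5 in wild type. The difference between the age effects, wild type minus APP/PS1, was 1.49 for miR-29b-3p (SE 0.49), 2.04 for miR-376a-3p (SE 0.77) and -0.62 for miR-467a-5p on the log2 scale. Their adjusted p-values were 0.535, 0.631 and 0.535 in edgeR's quasi-likelihood test, and no row passed (0 of 560, with 35 or 6.25% at an unadjusted p under 0.05). Without wild-type library 3 at 9 months, the difference was called for miR-29b-3p and miR-376a-3p, with adjusted p-values of 3.43e-05 and 0.0166 in edgeR's quasi-likelihood test. Neither miRNA was high in that library, so leaving it out favours a call. With no filter on low counts it was also called for both, with adjusted p-values of 2.97e-10 and 1.92e-06 in that test. The unfiltered fit gave far smaller p-values for variable rows too. For miR-200a-3p in wild type, whose 6-month libraries differed widely, the adjusted p was 8.38e-218, against 0.271 with the filter in the same test. The unfiltered p-values are therefore not read as evidence for a difference. The difference for these 2 miRNAs therefore passed or missed the threshold depending on the libraries and the filter used.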

How the data were processed

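Small RNA from 6 wild-type and 6 APP/PS1 brain samples had been sequenced. The deposited table gives counts per miRNA and a value the authors call TPM, which equals the count over the library total to within 4.95e-10 CPM and was used only for that check. mRNA levels are the authors' deposited FPKM values of the long RNA libraries of the same names, and were given without a test. Bowtie 0.12.2 and mm8 are named, per the submitters' processing notes, with no role. For the counting rule and its use of strand, nothing is stated in the sources read.

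Counts of all 12 small RNA libraries were fitted with edgeR 4.0.16 (TMM scaling, filterByExpr, 4 group means, quasi-likelihood F test, two-sided) in R 4.3.3. P-values were adjusted by Benjamini and Hochberg over the 560 tested rows, with a threshold of 0.05. CPM is the count per 1000000 miRNA reads. The SE is the size of the log2 change over the square root of F. The fit was tested on simulated data with known changes. An exact permutation test of 3 against 3 libraries cannot go below p = 0.1. DESeq2 1.42.0 was an alternative, as were other scalings and filters, 2 groups alone, a replicate block, mRNA covariates (mean log2 of FPKM + 0.25) and leaving out each library. Same-numbered libraries did not deviate together (r between -0.173 and 0.0379 in wild type), so numbers were not taken as pairs.

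Named miRNAs are the 20 of smallest p, the 10 most abundant and, of each list, the most abundant member and up to 4 of smallest p. A few more were named as arms, relatives or cluster neighbours of these, after their values were seen. Members and lists were chosen with earlier results of these data known. With 3 libraries a group and a floor of 3 reads for a count of 0, bounds cover counting error only. Figures were drawn with matplotlib 3.10.9.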

Additional observations from a re-analysis of the deposited data

How the results depend on the processing

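edgeR's quasi-likelihood test called 0 rows in wild type under other scalings, a minimum of 10 CPM, a robust spread, without predicted rows, with 1 row of each duplicated pair, without the miR-200 and miR-183 rows, with the olfactory bulb covariate and with the replicate block. The replicate block also gave 0 calls in APP/PS1 and for the difference between genotypes. The robust spread, the duplicated pairs, the removal of the miR-200 and miR-183 rows and the olfactory covariate were chosen after seeing the data. DESeq2 called 10 rows in wild type (3 higher and 7 lower at 9 months) and 14 in APP/PS1 (14 lower). With no filter on low counts, 30 rows were called in wild type (11 higher and 19 lower), 17 in APP/PS1 (2 higher and 15 lower) and 15 for the difference (13 higher and 2 lower). Those calls rest on the far smaller p-values of the unfiltered fit described above, and are not read as evidence. With only the 2 groups fitted, 2 were called in wild type (1 higher, miR-10a-5p, and 1 lower, miR-7688-5p, which passed the filter only through the 6-month libraries, where it is high). With the choroid plexus covariate, which takes up part of the age contrast in wild type, 1 was called there (1 higher, miR-100-5p) and 8 in APP/PS1 (8 lower). Leaving out a library gave 0 to 2 calls in wild type (0 to 2 higher), 0 to 12 in APP/PS1 (0 to 12 lower, the 12 without library 3 of APP/PS1 at 6 months) and 0 to 2 for the difference (0 to 2 higher). The 2 in wild type and the 2 for the difference, miR-29b-3p and miR-376a-3p in both, came without wild-type library 3 at 9 months, in which neither was high. The causes were not tested.

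Over 109 named miRNAs, 2577 of 2688 values kept their sign and 111 did not, and 38 newly passed the threshold. Of the 111, 29 moved by more than the SE and are given here. With the choroid plexus covariate they were 0.083 for miR-9-5p, 0.0828 for miR-9b-3p, 0.10 for let-7g-5p, 0.11 for miR-16-5p, 0.076 for miR-182-3p, -0.22 for miR-143-3p, -0.14 for miR-499-5p, -0.091 for miR-1298-5p, -0.13 for miR-448-3p, -0.059 for miR-1298-3p, -0.088 for miR-34b-3p, -0.15 for miR-34c-5p and -0.0085 for miR-34c-3p. With the olfactory bulb covariate they were 0.0093 for miR-9-5p, 0.00912 for miR-9b-3p, 0.038 for let-7g-5p, 0.034 for miR-16-5p, -0.091 for miR-155-5p, 0.044 for miR-122-5p and -0.30 for miR-193b-5p. Leaving out a library gave both signs for 30 named miRNAs. For 21 of them, such as miR-128-3p (-0.29 to 0.096), miR-26a-5p (-0.14 to 0.094) and miR-29a-3p (-0.094 to 0.066), no sign change exceeded the SE. The ranges of the others were -0.11 to 0.041 for miR-30c-5p, -0.20 to 0.16 for miR-148a-3p, -0.17 to 0.075 for miR-126b-5p, -0.17 to 0.18 for miR-126b-3p and miR-126a-5p, -0.0049 to 0.62 for miR-142a-3p, -0.088 to 0.16 for miR-99a-5p, -0.20 to 0.25 for miR-146a-5p and -0.011 to 0.30 for let-7d-3p.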

Other observations

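Intronic miRNAs were set beside the mRNAs of their host genes in the long RNA libraries of the same names, as values with no test. Of 40 pairs of a tested miRNA and a host mRNA, from 34 hosts, 25 had the same sign of difference between 9 and 6 months. Pde4d, a cAMP phosphodiesterase gene, lay at 30.0 ± 0.396 FPKM at 9 months and 35.2 ± 1.97 FPKM at 6 months (SD, n = 3), while its intronic miR-582-3p had a log2 change of 0.17. Grm8, a glutamate receptor gene, lay at 5.58 ± 0.319 FPKM at 9 months and 6.35 ± 0.325 FPKM at 6 months, and its miR-592-5p had a log2 change of -0.34. For the phosphatase gene Ctdsp1 the levels were 8.46 ± 0.162 FPKM at 9 months and 7.67 ± 0.783 FPKM at 6 months, and miR-26b-5p was higher in all 9-month libraries, by 0.19 on the log2 scale. These 3 hosts were among 6 of 34 that did not overlap between the ages (background 8.23% of 18108 mRNAs lower, share higher not computed). The others went opposite to their miRNAs, as did Pde4d. Pank1 and Map2k4 were higher at 9 months, with miR-107-3p at -0.21 and miR-744-5p at -0.13. Grid1 was lower, with miR-346-5p at 0.26. Some hosts enter the pairs with several miRNAs.

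The 99 predicted rows held little of the data. They summed to 27.5, 29.1 and 37.5 CPM in libraries 1, 2 and 3 at 9 months, against 29.02, 29.4 and 29.2 CPM at 6 months. Of them 5 were tested, with 4 above 0 and a median log2 change of 0.10.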
